A study of Mus musculus with 20 samples.

Results

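The 10 genes described here are used to place thymocytes on their developmental path: *Ptcra*, the recombination genes *Rag1*, *Rag2* and *Dntt*, the coreceptor genes *Cd4*, *Cd8a* and *Cd8b1*, and the surface marker genes *Cd24a*, *Il2ra* and *Kit*. They were chosen by symbol, each matched 1 Ensembl gene, and they are 10 of the 39017 genes in the table. RNA was sequenced from the bone marrow of irradiated C57Bl/6 x 129Sv/Jae F1 mice that had been transplanted with T lineage acute lymphoblastic leukemias (T-ALL). The leukemias had been induced by insertional mutagenesis (IM) with the MOL4070LTR retrovirus. There were 10 leukemias (20M, 2M, 4638, 5C, 73A, 73M, 78A, 8633, JW14 and JW81) with 2 libraries each, one from a column whose name carries the letters VEH and one from a column whose name carries DEX. Neither the sample labels nor the study's text explains these letters, so they are used as names only. All leukemias are treated here by name, without groups. Nothing says that the 2 libraries of a leukemia came from separate mice, and each leukemia is 1 tumor rather than a group of tumors. The p-values for DEX against VEH measure how that difference varied across leukemias. Those between leukemias set differences against the spread between the 2 libraries of a leukemia, which is not known to be a spread between mice.

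Thymocytes begin without either coreceptor (double negative), pass through a stage with both CD4 and CD8 (double positive), and leave as cells with 1 coreceptor. Early cells carry KIT, and CD25, the product of *Il2ra*, marks the double negative cells in which the T-cell receptor beta chain is rearranged. RAG1 and RAG2 cut the receptor genes, the terminal transferase encoded by *Dntt* adds bases at the joins, and the pre-T-cell receptor alpha chain encoded by *Ptcra* tests the new beta chain. Recombination resumes for the alpha chain in double positive cells and stops in mature cells, while CD24 is high on immature thymocytes and falls with maturation.

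Total counts per library ranged from 8226528 to 201222288 in the 9 leukemias that were tested. Whether 4638 belongs with them is unsure from the sources used here, so it was described by its levels and entered the tests only in an alternative, in which the number of the 10 genes called from VEH to DEX went from 4 to 2. Levels are given as FPKM, counts scaled to the exon length of the gene and the total of the library. For an exon length of 1 kb, the level reached by 3 counts was 0.365 FPKM in the shallowest library and 0.0149 FPKM in the deepest. Genes of ribosomal RNA stood at 22.3 to 62.4 counts per M in 5 libraries (VEH of 5C and DEX of 73M, 20M, JW81 and JW14) and at no more than 0.00497 in the other 13. Across all genes, libraries of one leukemia correlated at r = 0.927 to 0.990 (9 pairs), and those of 8633 with those of JW14 at 0.953 to 0.982 (4 pairs), while the remaining 140 pairs had a median of 0.874. The 8 genes of the T lineage list, which includes the CD3 chains and *Lck*, had summed levels of 340 to 1044 FPKM in the 18 libraries, and no gene of that list was at 0. Those of the 9 B lineage genes summed to 0.545 to 29.8 FPKM. The 5 neutrophil genes summed to 19.5 to 4354 FPKM. In 4638 the T lineage sums were 220 and 185 FPKM against neutrophil sums of 7609 and 4313 FPKM in VEH and DEX. These T lineage sums were the lowest of the 10 leukemias, and in each column the neutrophil sum was the highest. In such bulk RNA, fewer cells of a type and less RNA per cell cannot be told apart.

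Of the 10 genes, 7 matched an entry among the RefSeq promoters of GRCm38.p6. The 250 bases before the start of *Ptcra*, *Rag1*, *Dntt* and *Il2ra* are shown 5′ to 3′ on the strand of each gene because these 4 genes were above 1 FPKM together in the same 6 of the 10 leukemias, and the capitals mark E-boxes (CANNTG), the motif bound by E proteins such as E2A and HEB. The windows lie at chr17:46763713-46763962 on the minus strand for *Ptcra*, chr2:101649533-101649782 on the minus strand for *Rag1*, chr19:41029025-41029274 on the plus strand for *Dntt* and chr2:11642542-11642791 on the plus strand for *Il2ra*.
Ptcra: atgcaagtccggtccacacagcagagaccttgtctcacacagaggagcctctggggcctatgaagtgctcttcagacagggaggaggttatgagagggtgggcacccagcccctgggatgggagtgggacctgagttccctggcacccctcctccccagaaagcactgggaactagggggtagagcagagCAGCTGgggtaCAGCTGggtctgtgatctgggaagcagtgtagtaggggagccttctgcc
Rag1: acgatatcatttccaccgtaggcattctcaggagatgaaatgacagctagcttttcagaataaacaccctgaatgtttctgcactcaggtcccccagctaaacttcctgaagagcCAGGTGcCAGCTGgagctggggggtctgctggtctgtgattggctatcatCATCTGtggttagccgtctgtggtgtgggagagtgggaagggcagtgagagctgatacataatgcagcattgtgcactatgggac
Dntt: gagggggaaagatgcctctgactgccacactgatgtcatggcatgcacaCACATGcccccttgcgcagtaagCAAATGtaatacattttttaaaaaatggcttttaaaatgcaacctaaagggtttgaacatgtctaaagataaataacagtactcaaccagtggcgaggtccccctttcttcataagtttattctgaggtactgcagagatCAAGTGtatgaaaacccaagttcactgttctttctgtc
Il2ra: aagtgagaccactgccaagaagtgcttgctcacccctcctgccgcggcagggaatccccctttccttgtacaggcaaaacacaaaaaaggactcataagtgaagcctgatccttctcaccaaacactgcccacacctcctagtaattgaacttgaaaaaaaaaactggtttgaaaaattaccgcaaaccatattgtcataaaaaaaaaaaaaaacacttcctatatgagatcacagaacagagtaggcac
On both strands together, *Rag1* and *Dntt* held 3 E-boxes each, *Ptcra* held 2, and *Il2ra* held 0. Across 32851 RefSeq promoter windows of 250 bases, 66.2% held at least 1. The core TGGGAA, searched as the motif of the Notch partner RBPJ, had 2 matches in *Ptcra*, 1 in *Rag1* and 0 in *Dntt* and *Il2ra*, and 21.6% of all windows held it. In the other matched genes the windows held 2 E-boxes (*Cd8a*), 1 (*Rag2*) and 0 (both entries of *Kit*). These matches are letters in a window and not measured binding.

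*Rag1* (chr2:101638282-101649501, minus strand, mm10), the gene of the catalytic subunit of the recombinase, separated the leukemias sharply. It stood at 183.4 FPKM in VEH and 161 FPKM in DEX of 20M, at 209 and 89.7 FPKM in 73M, at 171 and 127.1 FPKM in 73A, and at 150 and 134 FPKM in 78A. A lower level was seen in 2M, with 28.9 and 26.4 FPKM, and in JW81, with 37.0 and 17.2 FPKM. These 6 leukemias were all above the other 4, with no overlap. The level was 1.37 and 3.47 FPKM in 4638, 0.348 and 0.0212 FPKM in 5C (26 and 4 counts), 0 and 0.00663 FPKM in 8633, and 0.0200 and 0 FPKM in JW14. Over 9 leukemias *Rag1* averaged 74.2 ± 76.2 FPKM (SD).

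*Rag2* (chr2:101624718-101632529, plus strand), the gene of the RAG1 partner, lies 5.75 kb from *Rag1* and was lower per length in every leukemia in which *Rag1* was high. It reached 24.0 and 6.44 FPKM in 73M, 13.7 and 12.1 FPKM in 73A, and 8.30 and 9.11 FPKM in 20M. Levels in 78A were 3.49 and 4.15 FPKM, and those in 2M were 1.78 and 2.42 FPKM. JW81 stood apart from these 5, with *Rag2* at 0.404 and 0.127 FPKM beside its *Rag1* of 37.0 and 17.2 FPKM. The ratio of *Rag1* to *Rag2* in JW81 was 91.5 in VEH and 136 in DEX, and in the other leukemias with high *Rag1* it lay between 8.71 and 43.0. *Rag2* was at 0 in both libraries of 8633 and of JW14. Its exons share 208 bases with the gene B230118H07Rik on the opposite strand, and since the strand setting of the counting is not stated, reads from these bases cannot be assigned.

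*Dntt* (chr19:41029275-41059525, plus strand), which encodes terminal transferase, was at or above 1 FPKM in both libraries of 9 of the 10 leukemias. Its highest level was in JW81, with 312 and 276 FPKM in VEH and DEX. It stood at 251 and 162 FPKM in 20M, 157 and 107 FPKM in 73A, 152 and 109 FPKM in 78A, 172 and 63.8 FPKM in 73M, and 119 and 61.0 FPKM in 2M. All 12 of these libraries exceeded those of the other 4 leukemias. JW14 came next with 28.2 and 5.30 FPKM although *Rag1* and *Rag2* were at or near 0 there. In 8633 *Dntt* was at 1.76 and 1.17 FPKM, in 4638 at 1.28 and 2.35 FPKM, and in 5C at 0.425 and 0.0306 FPKM, which were 11 and 2 counts. The libraries of 8633 and JW14, alike across all genes, did not overlap for *Dntt*.

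*Ptcra* (chr17:46755663-46763712, minus strand), the pre-T-cell receptor alpha chain, was highest in 20M, with 27.2 FPKM in VEH and 30.0 FPKM in DEX. It was 17.2 and 13.5 FPKM in 73M, 12.8 and 16.9 FPKM in 2M, and 17.5 and 12.1 FPKM in 78A, 3 leukemias whose ranges overlapped. Below them came 73A with 7.07 and 4.90 FPKM and JW81 with 4.04 and 3.98 FPKM. *Ptcra* had 2 counts in the VEH library of 5C and 0 in its DEX library, and it was at 0 in both libraries of 4638, 8633 and JW14. *Dtx1*, a Notch target read here for comparison, drew the same line: it ranged from 41.0 to 155 FPKM in the 12 libraries with *Ptcra* of at least 3.98 FPKM and was no higher than 0.386 FPKM in the other 8. *Hes1*, another Notch target, lay between 8.36 and 124 FPKM in the former libraries and no higher than 0.612 FPKM in the latter.

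**Figure D1:**
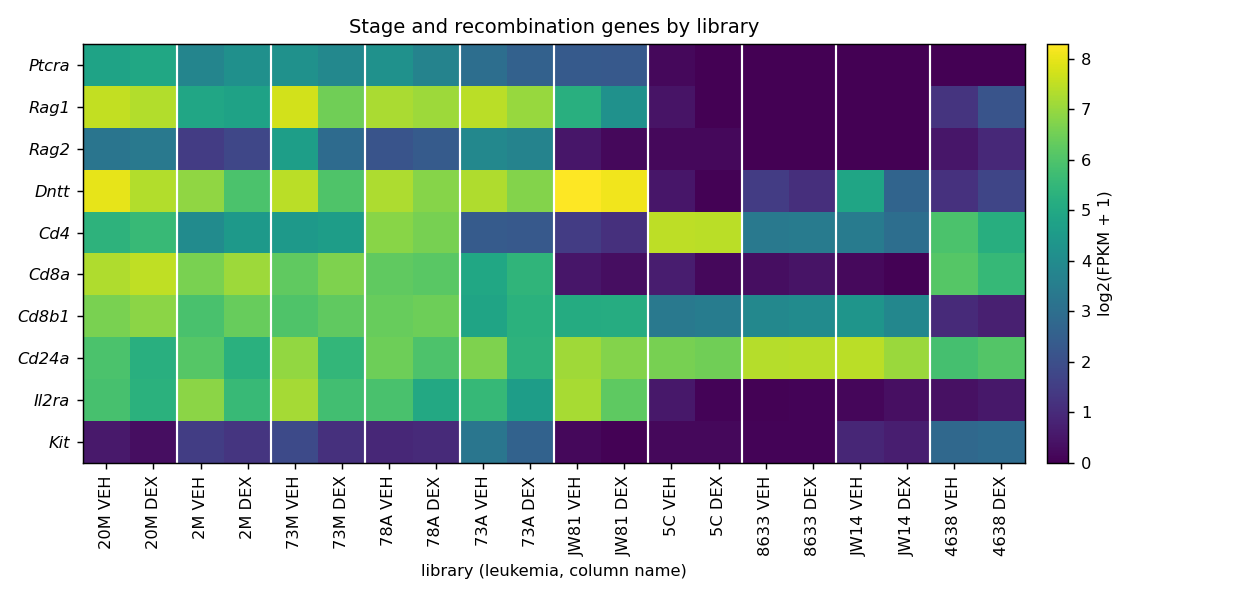
Levels of the 10 genes in 20 libraries as log2(FPKM + 1), with white lines between leukemias and brighter colors for higher levels. *Ptcra*, *Rag1*, *Dntt* and *Il2ra* are bright in 20M, 2M, 73M, 78A, 73A and JW81, and *Cd24a* is bright in all 10 leukemias.

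The coreceptor genes did not move as a block. *Cd4* (chr6:124864692-124888221, minus strand) was highest in 5C, at 174 FPKM in VEH and 173 FPKM in DEX, followed by 78A at 113 and 95.7 FPKM. It was 60.3 and 35.4 FPKM in 4638, 40.1 and 46.8 FPKM in 20M, 21.4 and 23.7 FPKM in 73M, and 14.8 and 21.5 FPKM in 2M. Levels near 10 FPKM were found in 8633 (9.28 and 9.99 FPKM) and JW14 (9.96 and 7.03 FPKM), which overlapped. *Cd4* was lowest in 73A, at 4.16 and 3.97 FPKM, and JW81, at 1.81 and 1.23 FPKM.

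*Cd8a* (chr6:71373427-71379173, plus strand), the CD8 alpha chain, was either clearly present or nearly absent. It was 158 and 179 FPKM in 20M, 97.0 and 135 FPKM in 2M, 76.7 and 103 FPKM in 73M, 76.0 and 70.9 FPKM in 78A, 68.3 and 45.9 FPKM in 4638, and 29.9 and 41.6 FPKM in 73A. In 5C, JW81, 8633 and JW14 no library exceeded 0.584 FPKM. No library lay between 0.584 and 29.9 FPKM.

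*Cd8b1* (chr6:71322788-71337494, plus strand), the CD8 beta chain, lies beside *Cd8a*, its end 35.9 kb before the *Cd8a* start. It was highest where *Cd8a* was high, with 97.7 and 114 FPKM in 20M, 81.5 and 87.9 FPKM in 78A, 58.6 and 81.9 FPKM in 2M, and 63.6 and 76.3 FPKM in 73M. Unlike *Cd8a*, it was also present in JW81 (33.2 and 34.4 FPKM), at the level of 73A (27.8 and 38.4 FPKM), and in JW14 (18.98 and 13.3 FPKM), 8633 (13.7 and 14.8 FPKM) and 5C (9.29 and 10.1 FPKM). *Cd8b1* exceeded *Cd8a* 81.6-fold and 144-fold per length in the libraries of JW81 and 54.9-fold and 42.5-fold in those of 8633. The reverse held in 4638, where *Cd8b1* was at 0.962 and 0.639 FPKM and *Cd8a* was 71.0-fold and 71.9-fold higher. In the 5 other leukemias with high *Cd8a* the ratio of *Cd8a* to *Cd8b1* was 0.807 to 1.65. Transcripts of 21 other genes share stretches of at least 95% identity with *Cd8b1*, up to 154 bases long, so its low levels are uncertain. Such stretches were also found for *Il2ra* (4 other genes, up to 158 bases), *Rag2* (1, 210 bases) and *Cd24a* (1, 218 bases). The low levels of *Il2ra* and *Rag2* carry the same limit.

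**Figure D2:**
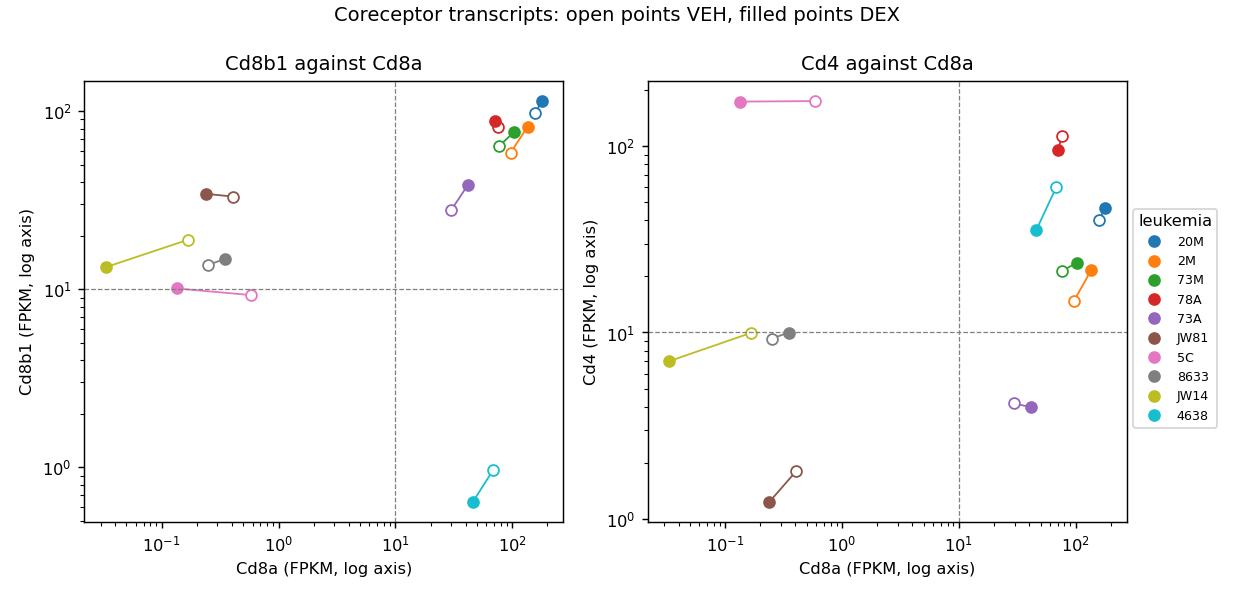
FPKM of *Cd8b1* (left) and *Cd4* (right) against *Cd8a* on log axes, with open points for VEH, filled points for DEX, a line joining the libraries of each leukemia, and dashed lines at 10 FPKM. JW81, 8633, JW14 and 5C lie at the left with *Cd8b1* of 9.29 to 34.4 FPKM and almost no *Cd8a*, and 4638 lies at the lower right of the left panel.

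*Cd24a* (chr10:43578284-43584265, plus strand), the gene of the heat-stable antigen CD24, was at least 36.6 FPKM in every library and averaged 95.8 ± 41.9 FPKM (SD, n = 9 leukemias). It was highest in 8633, at 165 and 167 FPKM, and in JW14, at 174 and 131 FPKM, and lowest in 20M, at 61.0 and 36.6 FPKM. The ranges of neighbouring leukemias overlapped in 8 of the 9 steps of the order, and the only step without overlap was that from JW81 (138 and 106 FPKM) to 5C (94.7 and 89.2 FPKM). CD24 is also made by erythroid, B and neutrophil cells. In 8633 the neutrophil genes summed to 392 and 613 FPKM, the erythroid genes to 1.90 and 3.75 FPKM and the B lineage genes to 0.545 and 0.580 FPKM. In JW14 the sums were 42.6 and 19.5 FPKM, 15.5 and 16.4 FPKM, and 0.821 and 0.812 FPKM. The part of such cells in the *Cd24a* level was not tested.

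*Il2ra* (chr2:11642807-11693193, plus strand), the gene of CD25, was high, at 10 FPKM or more in both libraries, in the same 6 leukemias as *Rag1* and *Dntt*. It stood at 145 and 74.5 FPKM in JW81, 143.4 and 53.4 FPKM in 73M, 113 and 46.6 FPKM in 2M, 57.2 and 38.3 FPKM in 20M, 59.4 and 31.0 FPKM in 78A, and 45.98 and 23.5 FPKM in 73A. It was no higher than 0.445 FPKM in 4638, 5C, JW14 and 8633. Within the former 6 leukemias the neighbours in the order overlapped at each step.

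*Kit* (chr5:75574916-75656722, plus strand), the stem cell factor receptor of the earliest thymocytes, was not high in any leukemia. The levels were 8.44 and 5.12 FPKM in 73A, 6.04 and 6.395 FPKM in 4638, 2.64 and 1.23 FPKM in 73M, and 1.83 and 1.44 FPKM in 2M, and every other library was below 1 FPKM. Mast cells and progenitors also make KIT, and the 2 leukemias with most *Kit* had the highest sums of the myeloid list (566 and 326 FPKM in 73A, 1374 and 941 FPKM in 4638). The 4 mast cell genes summed to 10.03 and 14.7 FPKM in 73A and 110 and 110 FPKM in 4638, against 0.0919 to 15.6 FPKM in the other libraries. Of these genes, *Mcpt4* and *Tpsb2* were each at 0 in 16 of the 18 libraries, which leave out 4638. *Ms4a2* was at 0 in 3 of them and *Cpa3* in 0, with a median of 3.16 FPKM for *Cpa3*. The part of such cells in the *Kit* level was not tested.

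Between leukemias, all 10 genes differed beyond the spread within leukemias (edgeR quasi-likelihood F test with the column name as a covariate, 9 leukemias, Benjamini-Hochberg adjustment over 11339 genes). So did 82.5% of all genes tested, and the count is read against that share. *Kit* passed the filter on low values only through 73A, so that its difference is no result. The smallest adjusted p was 2.47e-09 for *Cd4* and the largest 0.000591 for *Cd24a*. Across the 9 leukemia means of log2(FPKM + 1), *Ptcra* went with *Cd8b1* (r = 0.98), *Rag1* (0.94) and *Cd8a* (0.93), and *Dntt* went with *Il2ra* (0.93). *Cd4* had r between -0.35 and 0.27 with each of the other 9. *Cd24a* ran opposite to *Cd8a* (r = -0.90) and *Ptcra* (-0.85). These coefficients describe 9 points whose libraries share the same depth and cell mixture for all genes.

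Read together by a fixed rule, the genes gave 4 patterns. A gene was called high at 10 FPKM or more in both libraries, low below 1 FPKM in both, and intermediate otherwise. The patterns were named by which of *Cd4*, *Cd8a* and *Cd8b1* were high. A coreceptor gene left out of a name was not high, but it need not be low. *Cd4*, *Cd8a* and *Cd8b1* were all high in 4 of the 10 leukemias, 20M, 2M, 73M and 78A, the pattern of double positive cells. These 4 also had high *Ptcra*, *Rag1*, *Dntt* and *Il2ra*, although *Il2ra* is normally a marker of the preceding double negative stage. Bulk RNA does not show whether the transcripts were in the same cells.

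73A was CD8 only, with high *Cd8a* and *Cd8b1*, *Cd4* near 4 FPKM, the highest *Kit*, and high *Rag1*, *Rag2*, *Dntt* and *Il2ra*. Its *Trac*, the constant region of the alpha chain, was the lowest of the 9 leukemias at 1.45 and 0.966 FPKM. A CD8-positive thymocyte without CD4 can be either a mature cell or the immature cell just before the double positive stage. In 73A *Rag1* and *Dntt* were high, as in the 4 leukemias of the double positive pattern, whose *Rag1* ran from 26.4 to 209 FPKM. *Rag2* was high only in 73A, at 13.7 and 12.1 FPKM, and intermediate in those 4. Which of these cells 73A resembled was not tested.

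5C was CD4 only, with *Cd4* at its highest, *Cd8a* low and all of *Ptcra*, *Rag1*, *Rag2*, *Dntt*, *Il2ra* and *Kit* low. *Trac* was highest in 5C, at 142 and 145 FPKM. The *Cd8b1* level of 9.29 and 10.1 FPKM lay on both sides of the threshold, and 5C was mixed when high began at 5 FPKM or when the DEX library alone was read. No leukemia was double negative.

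The other 4 leukemias were mixed. JW81 had high *Rag1*, *Dntt*, *Il2ra* and *Cd8b1*, intermediate *Ptcra* and *Cd4*, and low *Rag2* and *Cd8a*. 8633 and JW14 shared 1 profile, with high *Cd24a* and *Cd8b1*, intermediate *Cd4* and *Dntt*, and low *Ptcra*, *Rag1*, *Rag2*, *Cd8a*, *Il2ra* and *Kit*. In these 2 leukemias *Trac* stood at 86.6 to 110 FPKM. 4638 had high *Cd4* and *Cd8a* with low *Cd8b1*, a combination found in no other leukemia here, beside the large non-T signal already given. The part of other cells in that combination was not tested. With high set at 20 FPKM, 8633 and JW14 became double negative (2 leukemias) and 2M became CD8 only. These names mean not high rather than absent. *Cd8b1* was at 13.3 to 18.98 FPKM in 8633 and JW14, and *Cd4* was at 14.8 and 21.5 FPKM in 2M.

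Other genes of each stage were read as lists. Of the early progenitor list only 5 of 10 genes passed the filter on low values. *Hhex*, a homeobox gene of early progenitors, was at 25.9 and 36.1 FPKM in JW81 and no higher than 0.676 FPKM in the other 8 tested leukemias. *Lyl1* of the same list was lowest in JW81 among the 9 leukemias, at 0.996 and 0.321 FPKM, and *Lmo2* was at 0.648 and 0.423 FPKM there. The mean of this list, in log2(FPKM + 1), was 1.01 and 0.894 in JW81. It was lowest in JW14 (0.632 and 0.521) and highest in 4638 (2.71 and 2.83). All 13 beta selection genes were tested, and their mean level, in log2(FPKM + 1), was 5.30 to 6.45 in the libraries of 20M, 2M, 73A, 73M, 78A and JW81 against 3.07 to 3.87 in those of the other 4. The list holds *Dtx1* and *Hes1*, which drew this line above, and *Notch1*, at 51.8 to 131 FPKM against 1.06 to 7.87 FPKM. Not all of its genes followed. *Cd3e* ran only from 15.3 to 35.3 FPKM in the 18 libraries. *Trbc1* was no higher than 0.283 FPKM in 73M and 78A but at 267 to 301 FPKM in 8633 and JW14. The 11 double positive genes had their highest mean in 20M, at 5.59 and 5.19 on the same scale. The 12 mature genes varied less, from 2.45 to 3.74 in 20 libraries, and *Il7r*, the interleukin 7 receptor gene of that list, ranged from 0.164 FPKM in 20M to 30.1 FPKM in JW14. Of the tested genes, 13 of 13 beta selection, 9 of 11 double positive, 12 of 12 mature and 10 of 12 end joining genes differed between leukemias, beside 82.5% of all genes tested. The early progenitor genes are not counted here, since *Hhex* passed the filter only through JW81.

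**Figure D3:**
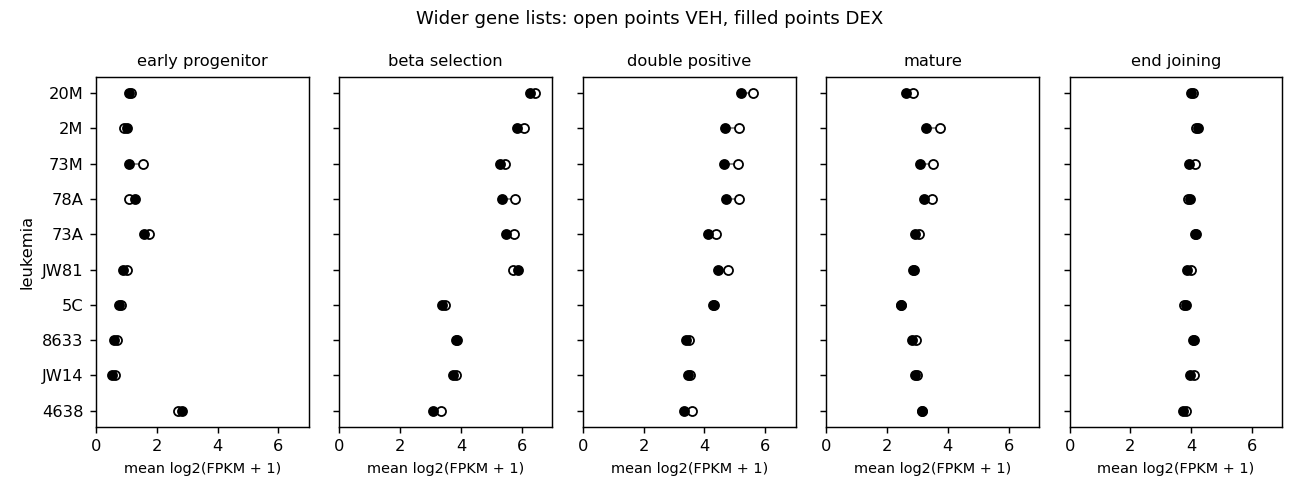
Mean log2(FPKM + 1) of the genes of each wider list, 1 row per leukemia, with open points for VEH and filled points for DEX. The beta selection panel splits the leukemias into 6 at 5.30 or above and 4 at 3.87 or below, a split that *Trbc1* of that list does not follow.

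By likeness of pattern over 9 leukemia means among 11339 genes, the genes closest to *Ptcra* were *Zswim6* (r = 0.995) and *LTO1* (0.994). The closest to *Rag1* were *Plekhf2* (0.992) and *Osbpl11* (0.988), to *Dntt* *Nbdy* (0.984) and *Tedc1* (0.981), and to *Cd8a* *Pitpnm2* (0.987) and *Rbm26* (0.981). The nearest to *Cd4* were the histone genes *Hist1h1b* (0.960) and *Hist1h2ap* (0.948), and to *Kit* *Syt11* (0.944) and *Adam2* (0.926).

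Within leukemias, 4 of the 10 genes fell from the VEH to the DEX library and 0 rose (edgeR quasi-likelihood test with the leukemia as a block, 9 leukemias, adjusted p under 0.05). Of all 11339 genes tested, 13.0% were called, 6.79% lower and 6.22% higher. The median log2 fold change of the 10 genes was -0.42 against 0.0039 over all genes tested. The genes that fell were *Il2ra*, *Dntt*, *Cd24a* and *Kit*. The coreceptor genes did not pass. With a term for the libraries with ribosomal RNA the number that fell was 1 (*Il2ra*), and in the 4 leukemias without such a library it was 2 (*Il2ra* and *Dntt*). As a second look, an exact two-sided sign-flip test over 9 leukemias was run on log2(FPKM + 1) for each gene, in which the smallest p of 512 sign patterns is 0.00391. These 10 exact p-values are not adjusted.

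*Il2ra* fell. Its VEH levels had a median of 57.2 FPKM (0.0374 to 145) and its DEX levels a median of 31.0 FPKM (0.0460 to 74.5), and the ranges of all libraries overlapped because leukemias differed. Within each of the 6 leukemias with high *Il2ra* the DEX library was the lower one. The log2 fold change was -0.96 ± 0.20 (SE, adjusted p = 0.0115, edgeR), and FPKM fell in 7 of 9 leukemias (exact p = 0.0156). The leukemias without a fall were 8633 and JW14, where *Il2ra* stayed below 0.266 FPKM. DESeq2 gave an adjusted p of 0.0600.

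*Dntt* fell in 9 of 9 leukemias, with a median of 152 FPKM in VEH (0.425 to 312) and 63.8 FPKM in DEX (0.0306 to 276). The log2 fold change was -0.86 ± 0.22 (SE, adjusted p = 0.0259, edgeR; exact p = 0.00391, the smallest possible). The steepest ratio on ample counts was 5.32-fold in JW14, from 28.2 to 5.30 FPKM, where 2440 counts in VEH stood against 100 in DEX. Without JW14 the log2 fold change was -0.68, and *Dntt* still passed at 0.0272. It did not pass without 20M (adjusted p = 0.0514, edgeR), 2M (0.0617) or 73M (0.0640), nor with 4638 added (0.0616).

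*Cd24a* had a median of 103 FPKM in VEH (61.0 to 174) and 61.7 FPKM in DEX (36.6 to 167). It was lower in DEX in 8 of 9 leukemias, the exception being 8633 with 165 and 167 FPKM (log2 fold change -0.59 ± 0.15 SE, adjusted p = 0.0239, edgeR; exact p = 0.00781). It did not pass without 20M (adjusted p = 0.0588, edgeR), 2M (0.0600) or 73A (0.053). The largest falls were in 73M, from 122 to 44.2 FPKM, and 73A, from 103 to 39.6 FPKM. In the same 2 leukemias the sum of neutrophil genes went from 2204 to 815 FPKM and from 4354 to 2513 FPKM, and that of erythroid genes from 769 to 102 FPKM and from 207 to 55.8 FPKM. The sum of B lineage genes went from 29.8 to 5.57 FPKM in 73M and from 8.27 to 4.08 FPKM in 73A. The part of these cells in the result was not tested. Over all 9 leukemias the neutrophil sum was lower in DEX in 7, the erythroid sum higher in 6 and the T lineage sum lower in 8. The B lineage sum was lower in 5 and higher in 4. The part of the T lineage sum in the falls of *Il2ra*, *Dntt* and *Cd24a* was not tested.

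*Kit* was 0.871 FPKM at the median in VEH (0.0492 to 8.44) and 0.614 FPKM in DEX (0.0270 to 5.12), and its log2 fold change was -0.56 ± 0.17 (SE, adjusted p = 0.0458, edgeR; exact p = 0.0234). It fell in 7 of 9 leukemias, the exceptions being 78A and 8633. This call sits close to the threshold, and without 73A *Kit* no longer passed the filter on low values. It was not called without 20M, 2M, 73M, JW14 or JW81 (adjusted p = 0.0560 to 0.110, edgeR), nor with 4638 added (0.0695). The myeloid sum was lower in DEX in 7 of 9 leukemias and the mast cell sum higher in 7. The mast cell sum was nearly all *Cpa3*, which was called higher (0.99, adjusted p = 0.0464, edgeR). Their part in the *Kit* result was not tested.

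*Rag1* was lower in DEX in 8 of 9 leukemias, with a log2 fold change of -0.58 ± 0.22 (SE) that did not pass (adjusted p = 0.0917, edgeR) and an exact p of 0.00781. The exception was 8633, in which *Rag1* was at 0 in VEH. In 5C the 26 counts of VEH and 4 of DEX gave a ratio of 16.4, and without 5C the log2 fold change was -0.47 and passed at 0.0455. In the 4 leukemias without a library with ribosomal RNA it was -0.20 (adjusted p = 0.293, edgeR), and with no filter on low values it was -0.62 and passed at 0.0122. *Rag2* had a log2 fold change of -0.28 ± 0.28 (adjusted p = 0.524, edgeR), and the value rested on 73M, where *Rag2* went from 24.0 to 6.44 FPKM. Without 73M it was 0.05. *Ptcra* did not pass, with -0.10 ± 0.17 (adjusted p = 0.706, edgeR) and higher levels in DEX in 20M and 2M.

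Among the coreceptor genes, *Cd8b1* was higher in DEX in 8 of 9 leukemias, with a log2 fold change of 0.21 ± 0.091 (SE, adjusted p = 0.139, edgeR; exact p = 0.160). The exception was JW14, with 18.98 and 13.3 FPKM, and without it the log2 fold change was 0.29 with an adjusted p of 0.0148. *Cd8a* had 0.16 ± 0.19 (adjusted p = 0.588, edgeR), with higher levels in DEX in 5 leukemias. *Cd4* had 0.03 ± 0.10 (adjusted p = 0.875, edgeR), with higher levels in 4.

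**Figure D4:**
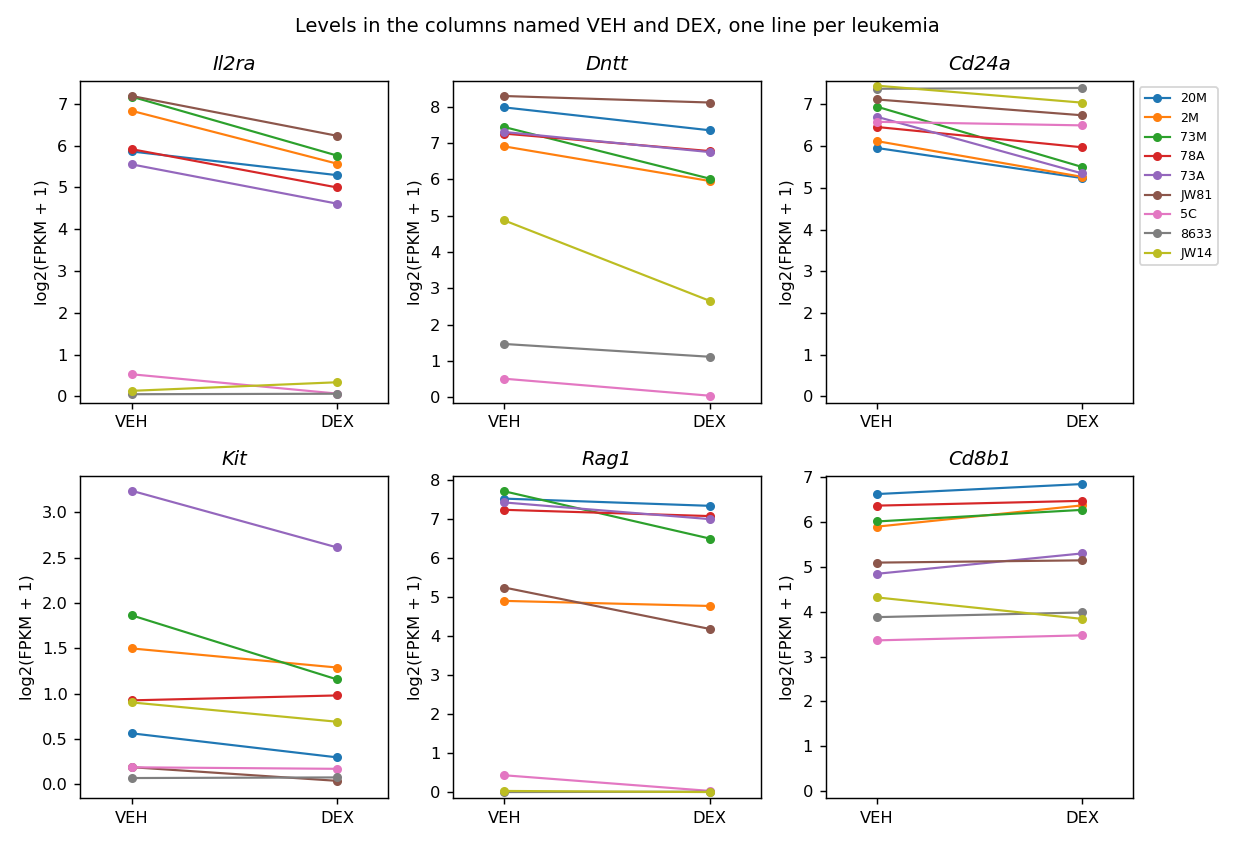
Levels of 6 genes as log2(FPKM + 1) in the VEH and DEX libraries, 1 line per leukemia for 9 leukemias. The lines of *Dntt* slope down in 9 of 9 leukemias, and those of *Cd8b1* slope up in all but JW14.

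**Figure D5:**
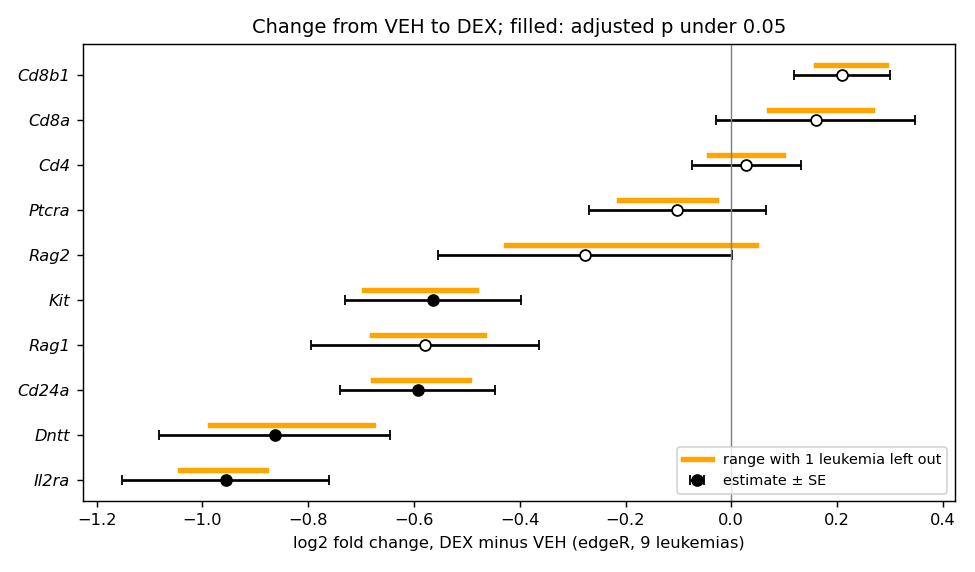
Log2 fold change of DEX against VEH by edgeR over 9 leukemias for each gene, with bars for the SE, filled points for an adjusted p under 0.05, and orange bars for the range when 1 leukemia is left out. The range of *Rag2* and that of *Cd4* cross 0, and the 4 filled points are *Il2ra*, *Dntt*, *Cd24a* and *Kit*.

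The libraries with ribosomal RNA fell unevenly between the columns, 4 in DEX and 1 in VEH, and the test was repeated with them accounted for. With a term for such libraries only *Il2ra* passed (log2 fold change -1.18, adjusted p = 0.0186, edgeR), and *Dntt* (-0.76, adjusted p = 0.163), *Cd24a* (-0.51, 0.0892) and *Kit* (-0.34, 0.239) did not. When the fit held only 8633, 78A, 73A and 2M, which have no such library, *Il2ra* (-0.999, adjusted p = 0.0174) and *Dntt* (-0.62, adjusted p = 0.0300) passed, while *Cd24a* (-0.64, 0.109) and *Kit* (-0.27, 0.331) did not. When 1 leukemia was left out, *Il2ra* passed in each of the 9 cases. The number of the 10 genes called was then 1 without 20M, 1 without 2M, 2 without 73A and 2 without 73M, and 3 to 5 otherwise.

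The wider lists are read against the 6.79% of all genes called lower and the 6.22% called higher. Of 5 early progenitor genes tested 1 fell, *Lyl1*, a transcription factor gene of early progenitors, by 0.72 on the log2 scale in 9 of 9 leukemias (SE 0.13, adjusted p = 0.00715, edgeR). Of 13 beta selection genes 1 fell, the cyclin gene *Ccnd3* (log2 fold change -0.57, adjusted p = 0.0314). Of 12 mature genes 1 fell, the TNF receptor family gene *Cd27* (-0.41, adjusted p = 0.00623). The medians of these lists were -0.19, -0.13 and -0.31 against 0.0039 over all genes tested.

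Of the 11 double positive genes 4 fell and 1 rose, with a median of -0.29, where 13.0% of all genes tested were called in either direction. *Cd5*, an inhibitor of T-cell receptor signalling that is also in the T lineage list, fell most (-0.62, adjusted p = 0.0108), and *Satb1*, a chromatin organizer, rose (0.26, adjusted p = 0.0230). The other genes that fell, named after their values were seen, were *Arpp21* (-0.59), *Tcf7* (-0.43) and *Themis* (-0.29). Of the 12 end joining genes 2 fell and 1 rose, with a median of 0.05. *Atm*, the kinase that responds to DNA breaks, fell most (-0.39, adjusted p = 0.0247), *Lig4*, the ligase of the pathway, also named after its values were seen, fell by 0.32, and *Xrcc6*, which encodes KU70, rose (0.34, adjusted p = 0.0144).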

How the data were processed

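Poly(A) RNA from bone marrow was read as paired ends, which the authors mapped to mm10 (Bowtie 2) and quantified by RSEM. The gene annotation, the strand setting and the full tool versions are not given in the sources used here. The deposited values are RSEM expected counts, which need not be whole, for 39017 Ensembl genes, although the table is named for FPKM, and 68.3% to 74.5% of the nonzero values of a library were whole. The 20 columns were assigned by the leukemia in their names, 17 to 1 sample and 3 to a leukemia only.

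Expected counts were rounded for the tests. FPKM were calculated from the counts with merged exon lengths of GENCODE release M21, found for 37693 genes. Genes averaging 1 FPKM or more over 18 libraries were kept (11339), and edgeR 4.0.16 in R 4.3.3 (quasi-likelihood test, TMM, Benjamini-Hochberg, adjusted p of 0.05) compared DEX with VEH libraries with the leukemia as a block, and leukemias with the column name as a covariate. SEs were derived from the F statistic. The libraries are paired because both come from 1 transplanted leukemia, and their deviations correlated at 0.583 to 0.911. The 10 exact sign-flip tests used a pseudocount of 1 FPKM. DESeq2 1.42.0 was an alternative. On simulated counts with 200 of 11339 genes changed 4-fold, edgeR recovered 99% for DEX against VEH and 7.04% of its calls were false. For DESeq2 these shares were 99% and 13.9%. edgeR recovered 95% between leukemias, with 4.04% false.

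All 10 genes passed the filter. They and the lists were chosen with earlier results of these data known. Named beside them were the called gene with the largest rise and fall in each list, 4 companion genes (*Dtx1*, *Hes1*, *Trac*, *Il7r*; another is not reported here) and the 2 genes most alike in pattern. *Hhex*, *Lmo2*, *Notch1*, *Trbc1*, *Cd3e*, *Cpa3*, *Ms4a2*, *Mcpt4*, *Tpsb2*, *Arpp21*, *Tcf7*, *Themis* and *Lig4* were named after their values were seen. The floor is 3 counts and covers counting error only. The plasmacytoid dendritic list (3 genes) summed to 6.41 to 23.9 FPKM and the myeloid list (8 genes) to 10.0 to 566 FPKM in the 18 libraries. In 4638 the plasmacytoid dendritic sums were higher, at 31.1 and 33.1 FPKM in VEH and DEX. Python 3.11.15, numpy 2.4.6 and pandas 2.3.3 were used.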

Additional observations from a re-analysis of the deposited data

Results flagged for a closer look

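For 9 leukemias, 20 sets of values (the level and the DEX minus VEH change of each gene) were searched for a leukemia standing away from the rest by Dixon's criterion, under which chance picks about 1 in 20. It picked 3. The change of *Rag2* from VEH to DEX in 73M was -1.75 on the log2(FPKM + 1) scale, and the other 8 leukemias lay between -0.32 and 0.30. The change of *Cd8b1* in JW14 was -0.48, while the others lay between 0.05 and 0.47. The level of *Kit* in 73A was 2.93 as mean log2(FPKM + 1), the next being 1.51. The DEX libraries of 73M and JW14 are 2 of the 5 with ribosomal RNA, and the VEH library of 73M was the deepest. Their part in these values was not tested.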

How the results depend on the processing

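With 18 libraries and 1 library of each kind per leukemia, changes in single leukemias have no replicate. The 10 genes called between leukemias numbered 9 or 10 with 1 leukemia left out (*Kit* was not tested without 73A). The number called from VEH to DEX was 4 and became 2 with 4638 added, 0 with no replicate block (the leukemia not in the model), 1 with a term for libraries with ribosomal RNA, 2 in the 4 leukemias without such a library, and 1 to 5 with 1 leukemia left out. Over all genes the 1475 calls became 8 without the block, 465 with that term, 479 in those 4 leukemias and 675 to 2036 with 1 leukemia left out (675 without 20M, 725 without 2M, 763 without 73A, 846 without 73M, 973 without JW81). DESeq2 called 2169. Without 8633 and JW14, an alternative added after the data were seen, 1140 genes were called and *Cd8b1* passed (0.31, adjusted p = 0.0218, edgeR) while *Kit* did not (0.0736).

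No called direction turned. Among uncalled edgeR values, *Rag2* was 0.095 with the ribosomal RNA term and 0.18 in the 4 leukemias, and -0.43 to 0.047 with 1 leukemia left out. *Cd4* was -0.0049 with no filter, -0.054 with 4638 and -0.041 to 0.10 with 1 left out, and *Cd8a* was -0.088 in DESeq2. For the mean change in log2(FPKM + 1), *Rag1* was -0.27 with 4638 added (exact p = 0.195), *Cd4* was 0.029 on TMM library sizes, and *Cd8a* was -0.15 with a pseudocount of 0.1. With 1 leukemia left out, these changes were -0.24 to 0.015 for *Rag2*, -0.078 to 0.042 for *Cd4* and 0.10 to 0.22 for *Cd8b1*, whose exact p was 0.00781 without JW14. With high set at 20 FPKM, 2 leukemias were CD8 only, 2 double negative and 2 mixed. CD4 only had 0 with high set at 5 FPKM, and 0 in the DEX libraries alone. The cause of these shifts was not tested.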
